A study of Mus musculus with 12 samples.

Results

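Paclitaxel was compared with its solvent, DMSO, in MOC2 cells labelled EV-proficient. MOC2 is a mouse oral squamous cell carcinoma line, and EV stands for extracellular vesicle, a membrane-bound particle released by cells. The libraries were chosen by their labels, as the 3 of the derivative MOC2-25 that received 600 nM paclitaxel for 48 h and the 3 controls of that derivative, whose treatment label is DMSO. They are 6 of 12 libraries. The other 6, 3 with DMSO and 3 with paclitaxel, come from the derivative MOC2-27, labelled EV-deficient, in which the release of vesicles by senescent cells was blocked genetically; the gene is not named in the labels. All cells grew in 1 epithelial medium with serum, hydrocortisone, cholera toxin, transferrin, insulin, tri-iodothyronine and EGF, and polyadenylated RNA was sequenced. Each EV label stands for 1 derivative of 1 line. The labels say neither whether a derivative is a clone nor whether the 3 libraries of a group came from separate cultures, so p-values measure the spread between these libraries, which may be technical.

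Paclitaxel binds beta-tubulin within the microtubule and stops the polymer from shortening. Cells that cannot complete a spindle stay in mitosis, and those that leave it without dividing carry extra chromosomes and micronuclei. Some of them enter senescence, a lasting arrest in which CDK inhibitors keep RB proteins active, E2F target genes stay low and inflammatory factors are secreted. Cells also carry sensors of misplaced nucleic acid: cGAS and STING for DNA, RIG-I and MDA5 for RNA. These sensors act through the transcription factors IRF3 and IRF7 on type I interferon, which acts in turn through STAT proteins and IRF9 on a DNA motif called the interferon-stimulated response element (ISRE).

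The 6 libraries held 23263472 to 54274224 counts. Levels are given in CPM, which are counts scaled to the library total multiplied by the library's TMM scaling factor. This factor was 0.9 to 0.939 with DMSO and 1.05 to 1.06 with paclitaxel. A value of 3 counts, taken here as the floor, stood for 0.0527 to 0.121 CPM. The lowest total was that of paclitaxel replicate 3. This library also stood apart on the second principal component of the 6 libraries (13% of their variance). It was at -60.4 there, against 33.2 and 30.3 for paclitaxel replicates 1 and 2. Mitochondrially encoded genes took 0.55% to 0.72% of the counts with DMSO and 0.846% to 0.907% with paclitaxel. The squamous epithelial genes Epcam, Cdh1, Krt8, Krt18 and Krt14 were above 100 CPM in all 6 libraries, while Krt5 held 7 and Trp63 held 23 counts over the 6 libraries, too few to test. The first principal component over the 12 libraries, with 54.1% of the variance, separated paclitaxel from DMSO. The second, with 16.4%, did not follow a label: it ran from 27.2 to 36.5 in the EV-proficient DMSO libraries and from 34.2 to 43.5 in the EV-deficient paclitaxel libraries, but from -64.6 to -37.9 and from -24.7 to -20.5 in the EV-proficient paclitaxel and EV-deficient DMSO libraries. A row that the authors added for a sequence called dngfr split the same way, with 5.72, 9.07 and 12.2 CPM in EV-proficient DMSO, 2.47, 3.5 and 3.76 CPM in EV-proficient paclitaxel, 1.89 to 2.54 CPM in EV-deficient DMSO and 9.62 to 12.4 CPM in EV-deficient paclitaxel. The labels do not say which derivative carries dngfr, and all libraries are described under the labels they were deposited with. For a gene that follows this split, a drug effect and a difference between derivatives cannot be told apart. Whether libraries were exchanged between the derivatives was not tested; an exchange of the 3 paclitaxel or of the 3 DMSO libraries cannot be told apart from such a difference. List counts and many of the single values are therefore given a second time with the same 3 paclitaxel libraries set against the EV-deficient DMSO libraries; both comparisons share the paclitaxel libraries, so the second is not independent of the first.

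Of 18108 genes tested, 10538 (58.2%) differed between paclitaxel and DMSO by edgeR's quasi-likelihood test at an adjusted p under 0.05. Of these, 5638 (31.1% of those tested) were higher with paclitaxel and 4900 (27.1%) were lower. Without paclitaxel replicate 1 or 2, 49.4% or 49% of the called genes were higher, against 53.5% with all libraries. At least 2-fold, 2867 genes (15.8%) were higher and 1099 (6.07%) lower. With this many genes called, the count for a gene group is read against these shares. In 33.1% of tested genes every paclitaxel library lay above every DMSO library, and in 29.2% every one lay below. The naming rule required this separation of the genes it took by fold change. Where such a separation is stated below, it describes the genes and is no added support. The direction depended on the level of the gene. Above a mean of 100 CPM, 443 of 2423 genes rose and 1409 fell. Between 20 and 100 CPM the numbers were 1646 and 2093 of 5151, and between 5 and 20 CPM they were 1162 and 642 of 2651. Between 1 and 5 CPM, 1077 of 2329 rose and 368 fell. Long non-coding RNAs were called higher in 24.5% and lower in 9.19% of cases, against 34.4% and 31.3% for protein-coding genes. Abundant genes thus fell more often than they rose, while scarce genes rose more often than they fell. Called lower were 58.2% of genes above 100 CPM, 40.6% from 20 to 100 CPM and 15.8% from 1 to 5 CPM. For lists of abundant genes the share over all genes is therefore too low a yardstick for falls. Tubulins, microtubule-associated proteins, actin, mitosis and NRF2 lists, with 56.2% to 62.5% lower, lie near the share above 100 CPM. No list was compared with genes of its own level. Against the EV-deficient DMSO libraries the paclitaxel libraries differed in 10303 genes (56.9%), 30.1% higher and 26.8% lower. Under the EV-deficient label paclitaxel and DMSO differed in 62.9% of tested genes, and the effect averaged over both labels passed the test in 68.4%. In bulk RNA, a change in the share of cells that express a gene and a change in its RNA per cell cannot be told apart. Below, levels are in CPM, and a rise, a fall or a change by a number, or a number in brackets after a gene, is a log2 fold change of paclitaxel against DMSO, ± SE where given.

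**Figure D1:**
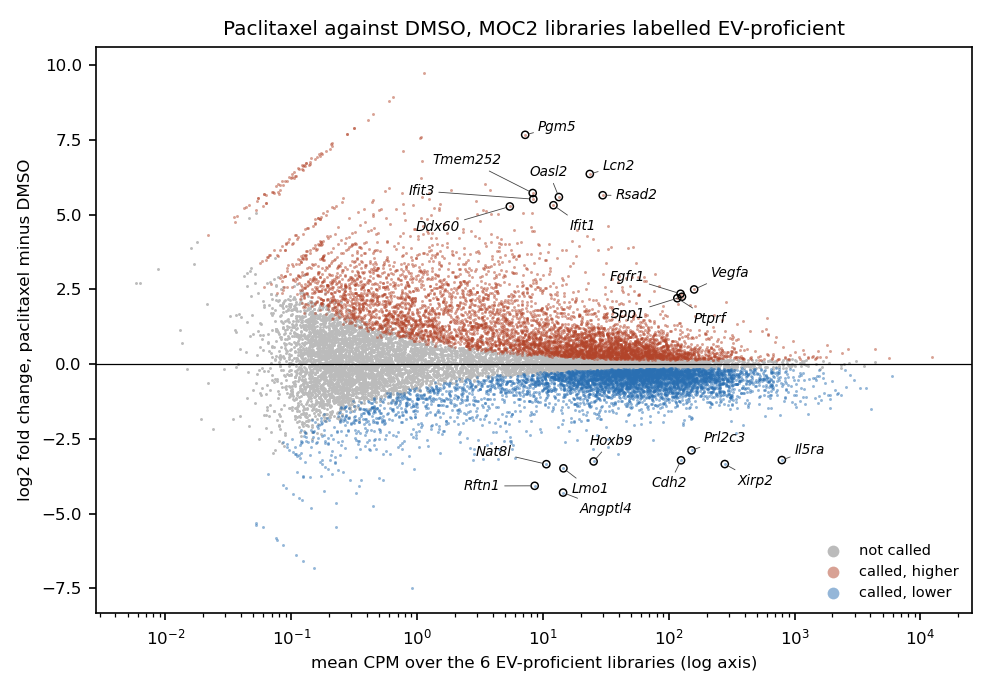
Each point is 1 of 18108 tested genes, with its mean level over the 6 libraries (CPM, log axis) and its log2 fold change under paclitaxel; red and blue points passed an adjusted p under 0.05. The largest named changes are labelled: higher genes lie mostly below 100 CPM, and the lowest fold changes of abundant genes belong to Xirp2, Cdh2, Il5ra and Prl2c3.

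The clearest group was made of genes that respond to interferon. All 15 tested members of the IFIT and OAS families, which act against foreign RNA, rose, with a median log2 fold change of 3.24, against 0.05 over all tested genes; it was 4.11 without DMSO replicate 3. Of the IRG, GBP and Mx GTPases, which act against intracellular parasites, bacteria and viruses, 17 of 18 rose and none fell (median 3.39). Among 33 other interferon effectors 30 rose and Isg20 fell (median 2.55). Against the EV-deficient DMSO libraries the same 3 lists had medians of 3.85, 3.53 and 2.76, with 15, 18 and 30 members higher. Some members were at the floor with DMSO, where a fitted fold change is no bound; with those set at their lower bounds the medians were 3.1, 3.17 and 1.66. The lists were assembled with earlier results of these data known.

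The start regions of these genes are shown because many hold the ISRE, searched as GAAA, any 2 bases and GAAA on both strands in the 300 bases from 250 before to 50 after each RefSeq transcript start. Of all 32851 such windows 3.44% held it, as did 437 of the 11735 tested genes with a window (3.72%). Among the IFIT and OAS genes it was 9 of 12, among the GTPase genes 10 of 11, and among the other effectors 10 of 28. Isg15 and Rsad2 of the other effectors, Ifit3, and Igtp of the GTPases are printed 5′ to 3′ on the gene's own strand (RefSeq, GRCm38.p6), with the ISRE letters of either strand in capitals. The windows lie at chr4:156200769-156201068 (minus strand) for Isg15, chr12:26456403-26456702 (minus) for Rsad2, chr19:34583279-34583578 (plus) for Ifit3 and chr11:58199306-58199605 (plus) for Igtp.
Isg15: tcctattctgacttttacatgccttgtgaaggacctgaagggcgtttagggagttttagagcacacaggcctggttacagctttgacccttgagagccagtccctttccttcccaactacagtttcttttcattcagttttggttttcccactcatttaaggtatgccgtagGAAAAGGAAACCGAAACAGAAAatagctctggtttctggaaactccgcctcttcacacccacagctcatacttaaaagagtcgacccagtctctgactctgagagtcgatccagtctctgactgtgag
Rsad2: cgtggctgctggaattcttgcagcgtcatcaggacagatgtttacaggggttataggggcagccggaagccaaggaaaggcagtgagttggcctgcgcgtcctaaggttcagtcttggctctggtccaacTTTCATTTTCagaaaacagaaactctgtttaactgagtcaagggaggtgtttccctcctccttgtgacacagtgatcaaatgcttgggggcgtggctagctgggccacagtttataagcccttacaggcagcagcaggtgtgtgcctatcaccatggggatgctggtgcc
Ifit3: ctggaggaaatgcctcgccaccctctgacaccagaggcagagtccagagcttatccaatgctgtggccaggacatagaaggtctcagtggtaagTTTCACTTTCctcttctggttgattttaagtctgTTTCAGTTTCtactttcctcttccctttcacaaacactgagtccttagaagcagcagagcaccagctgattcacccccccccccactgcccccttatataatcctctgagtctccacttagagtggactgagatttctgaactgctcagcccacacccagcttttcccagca
Igtp: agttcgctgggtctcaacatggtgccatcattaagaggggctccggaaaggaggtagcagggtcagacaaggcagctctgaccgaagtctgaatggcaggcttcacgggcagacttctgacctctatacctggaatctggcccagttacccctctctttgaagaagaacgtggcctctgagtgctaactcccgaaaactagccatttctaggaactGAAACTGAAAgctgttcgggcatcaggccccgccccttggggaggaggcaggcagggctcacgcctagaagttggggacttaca
Isg15 held 3 overlapping matches that begin 78 to 66 bases before the start, Ifit3 held 2 at 156 and 122 bases, and Rsad2 and Igtp held 1 each, at 120 and 34 bases. A match is a run of letters, not a shown binding site, and Oasl2, Ifit2 and Ifi44, whose windows held none, rose as well.

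Isg15 encodes a ubiquitin-like protein that is attached to other proteins and also secreted. It measured 1.41, 1.68 and 1.35 CPM in the 3 DMSO libraries and 15.9, 16.4 and 14 CPM in the 3 paclitaxel libraries. The lowest paclitaxel library was thus far above the highest DMSO library, a log2 fold change of 3.38 ± 0.19 (SE; adjusted p = 3.26e-12). Rsad2 encodes viperin, an enzyme that makes a chain-terminating nucleotide against viral polymerases. Its level was 1.53, 0.981 and 0.966 CPM with DMSO and 63.6, 59.6 and 52.5 CPM with paclitaxel (log2 fold change 5.65 ± 0.35, adjusted p = 1.38e-11). Ifit3, whose protein helps IFIT1 hold viral RNA, went from 0.317, 0.455 and 0.293 CPM to 16.2, 18.8 and 14.2 CPM (log2 fold change 5.52 ± 0.43, adjusted p = 5.77e-10). For Igtp, an IRG GTPase, the values were 1.05, 1.46 and 1.23 CPM and 6.4, 7.29 and 5.5 CPM, a smaller change of 2.37 ± 0.22 (adjusted p = 7.31e-09). None of these 4 genes overlapped between the groups, which the naming rule required of Rsad2 and Ifit3. Against the EV-deficient DMSO libraries the changes of Isg15, Rsad2, Ifit3 and Igtp were 3.1, 5.49, 5.45 and 3.25. Under the EV-deficient label the paclitaxel effect on Ifit3 was larger by 2.24 on the log2 scale (interaction, adjusted p = 0.0396), and 7370 of all tested genes (40.7%) had an interaction at an adjusted p under 0.05.

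Other members with a mean of at least 1 CPM rose as well. Oasl2, an OAS-like protein, rose by 5.59, Ifit1 by 5.31, Ifi44 by 5.83 and Rtp4 by 5.07. Ddx60, a helicase that assists RNA sensing and is not on the lists, rose by 5.27. Tgtp1, Ifi47 and Irgm2 of the GTPases rose by 3.97, 3.76 and 3.52. Tgtp1 and Tgtp2, Ifit3 and Ifit3b, and the Oas1 and Gbp clusters are near-identical copies among which reads can be split, so their single values are uncertain. Iigp1 held no count in any DMSO library and 1.11, 1.3 and 1.17 CPM under paclitaxel, at least 15.4-fold higher than 3 counts per library. Mx1, which blocks influenza virus, was at least 11.2-fold and Oas2 at least 8.67-fold higher by the same floor. The smallest rises among the 3 lists were those of Eif2ak2 (0.21), the kinase PKR, and Ifi35 (0.34). Isg20, a nuclease, fell by 0.44.

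**Figure D2:**
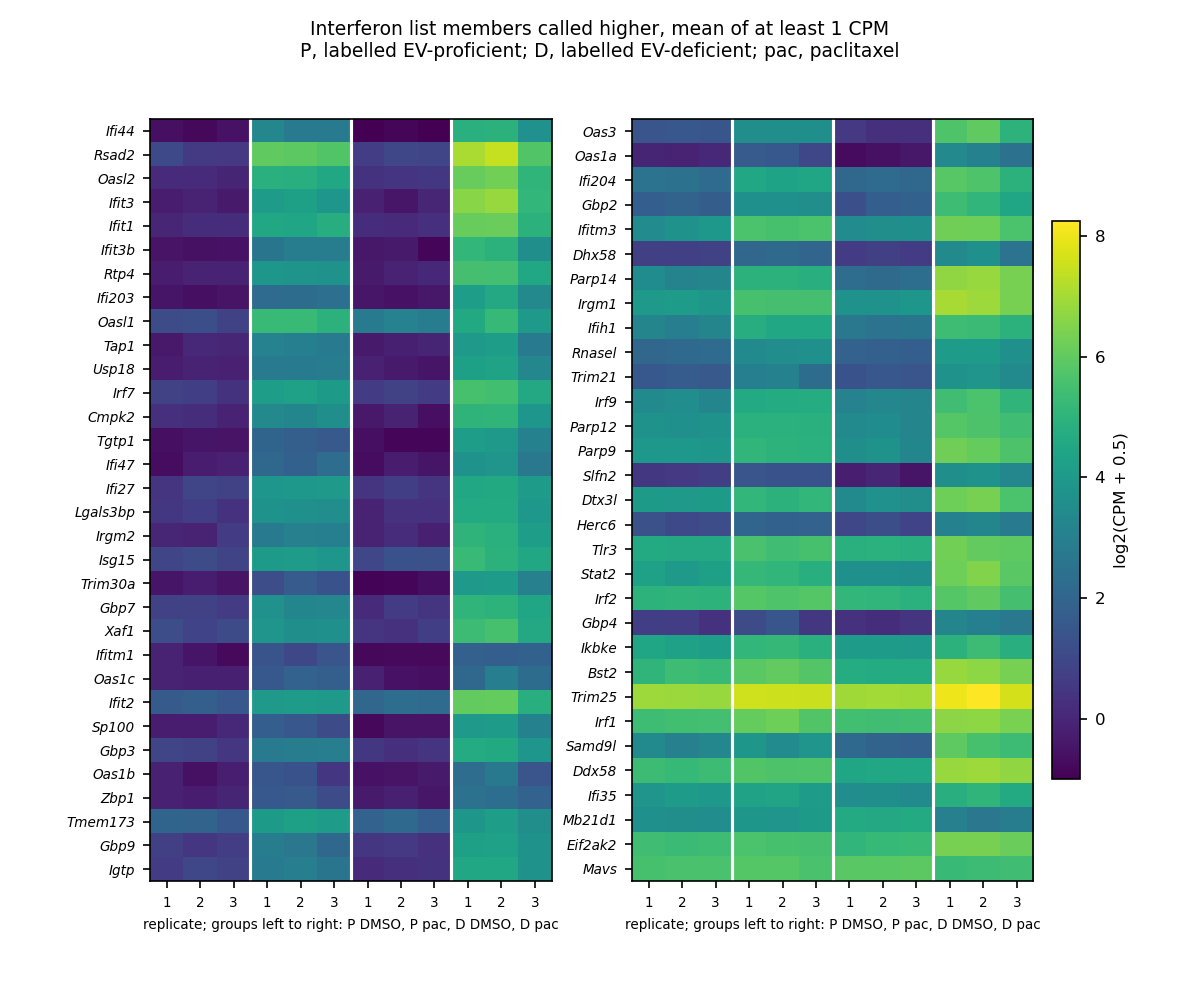
Rows are 63 of the interferon effectors, sensors and transcription factors that rose and had a mean of at least 1 CPM over the 6 EV-proficient libraries; columns are the 12 libraries, and colour is log2(CPM + 0.5). In both DMSO blocks most rows are dark, while the EV-proficient paclitaxel block lies above them and the EV-deficient paclitaxel block is brighter still for most rows, less so in its replicate 3: Rsad2 measured 133.8, 171 and 53.3 CPM there, against 63.6, 59.6 and 52.5 CPM under the EV-proficient label, and its interaction did not pass the test (adjusted p = 0.226).

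Sensors and transcription factors of the pathway had a lower median: 18 of 23 rose and 2 fell, with a median of 0.89 (1.22 against the EV-deficient DMSO libraries). Irf7, the factor that amplifies interferon production, measured 1.24, 1.12 and 0.79 CPM with DMSO and 17.1, 18.9 and 16.1 CPM with paclitaxel, a change of 4.03 ± 0.23 (adjusted p = 5.34e-12). Tmem173, which encodes STING, went from 3.41, 3.3 and 2.43 to 16.1, 18.4 and 16.3 CPM (log2 fold change 2.46 ± 0.17, adjusted p = 7.25e-11). Both genes were separated between the groups in all libraries. Ifih1, which encodes the RNA sensor MDA5, rose by 1.54, Ifi203, of a family of DNA-binding proteins, by 4.52, and Zbp1, a sensor of Z-form nucleic acid, by 2.49. The signal transducer genes rose as well, Irf9 by 1.34 and Stat2 by 0.89. Mb21d1, which encodes cGAS, rose by 0.34 against EV-proficient DMSO but was at -0.74 against EV-deficient DMSO, and Mavs, the adaptor of the RNA sensors, likewise turned from 0.17 to -0.17. The kinase gene Tbk1 fell by 0.39 and Samhd1, a nucleotide hydrolase, by 0.61. Irf3 (0.13) and Adar (0.02) did not pass the test.

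Interferon itself was at the limit of detection. Ifnb1 held 3, 2 and 0 counts in the DMSO libraries and 5, 2 and 1 with paclitaxel, so a difference was not detectable at this depth, and 8 of 18 listed ligands and receptors, all of them ligands, were too low to test. Of the 10 tested members of that list, 6 rose and none fell (median 0.39; 7 and none against EV-deficient DMSO). They were the receptor chains Ifnar1 (0.39), Ifnar2 (0.4), Ifngr1 (0.47), Ifngr2 (0.48) and Ifnlr1 (0.91) and the receptor-bound kinase Tyk2 (1.05). Jak1 (0.0) and the feedback genes Socs1 (-0.15) and Socs3 (0.19) did not pass the test.

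Antigen presentation moved unevenly. In the list of MHC class I and peptide loading genes 16 of 23 rose and 3 fell, with a median of 0.84 (19 higher and 4 lower against EV-deficient DMSO, median 1.07). Tap1, a subunit of the pump that carries peptides into the endoplasmic reticulum, rose from 0.268, 0.55 and 0.498 to 8.1, 7.47 and 6.39 CPM, a change of 4.07 ± 0.33 (adjusted p = 9.11e-10). Psmb9, an immunoproteasome subunit, had at most 2 counts in a DMSO library and 1.46, 1.42 and 1.58 CPM with paclitaxel, at least 19.2-fold higher. B2m, the light chain shared by all class I molecules, rose from 133, 148 and 152 to 266, 233 and 292 CPM (log2 fold change 0.87 ± 0.08, adjusted p = 7.83e-09). The classical heavy chains did not pass the test: H2-K1 measured 321, 366 and 356 CPM with DMSO and 318, 350.2 and 305 CPM with paclitaxel, and H2-D1 262, 293 and 282 and 276, 304 and 279.9 CPM. Their groups overlapped. Against the EV-deficient DMSO libraries H2-K1 was higher by 0.2 and H2-D1 by 0.45. Of the nonclassical chains H2-T23, a ligand of NK receptors, rose by 3.06 and H2-Q7 by 4.05 (1.98 with that reference), but H2-Q genes are near-identical and their values uncertain. The chaperones Calr, Pdia3 and the subunit Psmb10 fell by 1.28, 0.6 and 0.65.

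Among 20 tested ligands of T and NK cells, 11 rose and none fell (median 0.52). Against EV-deficient DMSO 12 were higher and none lower (median 0.84), but only 7 were higher with both references. Vtcn1, an inhibitory relative of PD-L1, rose by 2.48, Lgals9, which encodes galectin-9, by 0.93 (1.97 with the other reference), Cd1d1, which presents lipids to NKT cells, by 0.92, and Cd274, PD-L1 itself, by 0.51. Cd47, a signal against phagocytosis, was at 0.02 and did not pass the test; against the EV-deficient DMSO libraries it was 0.88 higher.

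Chemokines did not share a direction: 8 of 23 rose and 7 fell, while 10 were higher and 3 lower against EV-deficient DMSO. Ccl5, which attracts T cells, measured 0.999, 0.838 and 0.41 CPM with DMSO and 8.02, 7.03 and 4.69 CPM with paclitaxel (log2 fold change 3.12 ± 0.27, adjusted p = 2.25e-09). Cxcl10, an interferon-induced ligand of CXCR3, rose from 6.53, 6.65 and 6.82 to 20.5, 20.5 and 18.4 CPM (1.58 ± 0.15, adjusted p = 7.61e-09). Cx3cl1, the membrane-bound chemokine fractalkine, rose from 47.6, 48.1 and 47 to 197, 194 and 182 CPM (2.0 ± 0.06, adjusted p = 3.7e-16). In all 3 of them every paclitaxel library was above every DMSO library. For other chemokines the reference mattered. Of the ligands that attract neutrophils, Cxcl2 fell by 1.33, Cxcl1 by 0.48, Cxcl3 by 1.43 and Cxcl5 by 0.38, whereas against the EV-deficient DMSO libraries they were at -0.31, -0.12, 0.1 and 0.5. Ccl2, which attracts monocytes, fell by 1.88 but was at -0.3 with that reference and no longer passed the test (adjusted p = 0.393).

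Of 30 tested cytokines and receptors 16 rose and 6 fell (median 0.48; 16 and 5 with the other reference). Il1a, an alarmin that induces other cytokines, rose from 35.3, 34.9 and 35.5 to 87.9, 77 and 84.8 CPM (1.24 ± 0.12, adjusted p = 2.49e-08). Lifr rose by 2.42, Il15, a growth factor for NK and T cells, by 1.51, and Il11 by 2.4, the last only 0.52 against the EV-deficient DMSO libraries. Csf3, which encodes G-CSF, rose by 0.54 and Tslp by 0.8. Against EV-deficient DMSO, Tslp was at 2.77. Csf1 (-0.88), Il23a (-0.52) and Mif (-0.53) fell, but Csf1 was at 0.07 with that reference and no longer passed the test (adjusted p = 0.574). Lif was abundant in both groups, at 262, 258 and 251 CPM and 257, 256 and 225 CPM, and did not pass the test. Il6 was too low to test, with 6, 2 and 1 counts with DMSO and 12, 2 and 0 with paclitaxel. The NF-kB list was mixed, with 11 of 22 higher and 6 lower (median 0.18), against 10 and 7 with the other reference (median 0.05). Tnfaip2 rose by 2.34 (0.89 with the other reference), the inhibitor gene Nfkbia by 0.64 and the antiapoptotic target Birc3 by 1.04, while the subunit genes Rela, Nfkb1 and Nfkb2 fell by 0.63, 0.48 and 0.59.

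Acute phase and complement genes rose in 9 of 16 cases and fell in 1, with a median of 2.03 (2.74 against the EV-deficient DMSO libraries). Lcn2, the iron-binding protein lipocalin-2, measured 0.512, 0.407 and 0.82 CPM with DMSO and 47.6, 47.6 and 44.5 CPM with paclitaxel, an 82-fold difference on average (log2 fold change 6.36 ± 0.17, adjusted p = 7.98e-17). C3, the central complement component, went from 3.61, 2.63 and 3.02 to 20.2, 19.5 and 13.8 CPM (2.54 ± 0.15, adjusted p = 5.5e-12), and Cp, the copper carrier ceruloplasmin, from 15.8, 14.2 and 14.6 to 58.2, 51.4 and 59.6 CPM (1.93 ± 0.09, adjusted p = 1.67e-13; 3.19 with the other reference). Each of these groups of 3 stood clear of the other. Pglyrp1, a peptidoglycan-binding protein, rose by 3.78. The complement inhibitor gene Cd55 fell by 0.92, but was at -0.11 with the other reference. Saa1, Saa2 and Orm1 were too low to test.

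**Figure D3:**
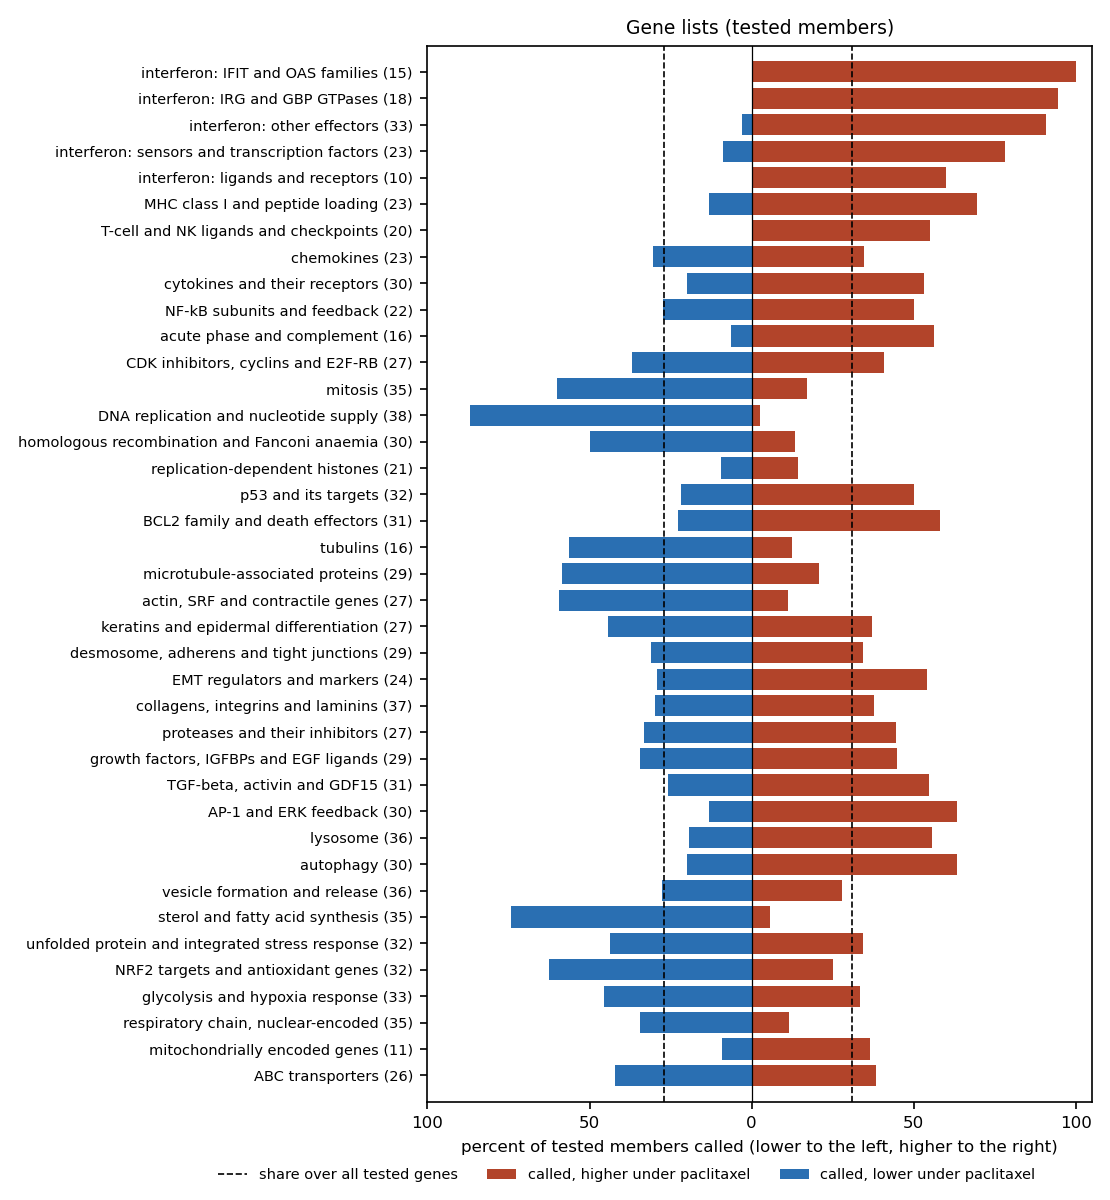
For each gene list, with its number of tested members in brackets, bars give the percent of tested members called under paclitaxel in the EV-proficient libraries. Higher is to the right (red) and lower to the left (blue). Dashed lines mark 31.1% and 27.1%, the shares over all tested genes, which are not matched to the level of a list. The 3 lists of interferon effectors reach furthest right, and DNA replication and sterol synthesis furthest left.

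DNA replication genes fell together. Of 38 tested, 33 fell and only Gins4 rose, with a median of -0.69 (-0.73 against the EV-deficient DMSO libraries, with 35 lower and none higher). Cdc6, which loads the replicative helicase onto origins, measured 99.1, 94 and 85.9 CPM with DMSO and 27, 26.9 and 26 CPM with paclitaxel (log2 fold change -1.8 ± 0.12, adjusted p = 3.45e-11). Rrm2, the regulated subunit of ribonucleotide reductase, fell from 396, 399 and 397 to 153, 139 and 177 CPM (-1.35 ± 0.1, adjusted p = 1.97e-10). Mcm3, a subunit of that helicase, fell from 358, 386 and 345 to 185, 199.5 and 181 CPM (-0.95 ± 0.11, adjusted p = 3.14e-07). The groups did not overlap for any of the 3 genes, and within a group the libraries lay close together. Tyms, the enzyme that makes thymidylate, fell by 1.54 and Orc1 of the origin recognition complex by 1.41. Cdt1 (0.13), Cdc45 (-0.03), Rfc4 (-0.15) and Gins1 (-0.23) did not pass the test; against EV-deficient DMSO the last 3 did, at -0.45, -0.28 and -0.42. Fen1, a flap nuclease, fell by 0.98 from a mean of 3.11 CPM, a value that is uncertain because near-identical copies of it exist.

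The start regions of Cdc6 and Mcm3 are shown for the E2F motif, searched as TTTCCCGC or TTTGGCGC on both strands. Such letters stood in 1.56% of all windows, in 364 of the 11735 tested genes with a window (3.1%) and in 11 of 31 replication genes. The windows are chr11:98907901-98908200 (plus strand) for Cdc6 and chr1:20820263-20820562 (minus strand) for Mcm3, with the E2F letters of either strand in capitals.
Cdc6: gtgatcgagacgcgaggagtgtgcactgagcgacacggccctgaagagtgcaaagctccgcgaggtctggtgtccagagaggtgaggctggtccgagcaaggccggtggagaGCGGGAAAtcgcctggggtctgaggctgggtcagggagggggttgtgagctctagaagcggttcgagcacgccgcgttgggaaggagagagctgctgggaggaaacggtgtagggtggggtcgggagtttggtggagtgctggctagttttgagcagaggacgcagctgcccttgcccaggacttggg
Mcm3: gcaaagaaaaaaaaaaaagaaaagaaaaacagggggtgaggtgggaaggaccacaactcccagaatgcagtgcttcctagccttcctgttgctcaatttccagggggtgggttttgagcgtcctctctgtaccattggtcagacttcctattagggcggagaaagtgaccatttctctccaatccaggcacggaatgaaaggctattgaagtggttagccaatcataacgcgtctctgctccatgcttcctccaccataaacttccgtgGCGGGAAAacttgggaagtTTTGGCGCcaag
In Cdc6 the match began 138 bases before the start, and in Mcm3 there were 2 matches just after it. Rrm2, Tyms and Orc1, which fell as well, held no such letters in their windows, and the list of mitotic genes held none in 30.

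Mitotic genes fell less and less uniformly: 21 of 35 fell and 6 rose, with a median of -0.2 (21 lower and 3 higher against EV-deficient DMSO). Nuf2, a kinetochore protein, fell from 72.6, 70.2 and 65 to 34.4, 30.5 and 33.9 CPM (-1.07 ± 0.09, adjusted p = 1.63e-09). Birc5, which encodes survivin of the chromosomal passenger complex, fell from 194, 199 and 188 to 94.2, 91.4 and 96.3 CPM (-1.04 ± 0.09, adjusted p = 1.27e-09). Kif4, a chromosome-bound kinesin, fell by 0.89, separase (Espl1) by 0.76 and Kif20a by 0.69. Pttg1, which encodes securin, the inhibitor of separase, rose by 0.75, and the CDK-activating phosphatases Cdc25b and Cdc25c rose by 0.48 and 0.62. Top2a, Tpx2, Ttk and Bub1 did not pass the test, at -0.11, -0.12, -0.14 and 0.01; Top2a did against EV-deficient DMSO, at -0.28.

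CDK inhibitors, cyclins and the E2F-RB genes did not move together. Cdkn2b, which encodes the CDK4 and CDK6 inhibitor p15, measured 12.4, 15.5 and 17 CPM with DMSO and 47.1, 48.5 and 48 CPM with paclitaxel (1.68 ± 0.11, adjusted p = 2.19e-11). Rbl2, the RB relative p130 of resting cells, rose from 21.2, 21.7 and 21.4 to 60.04, 52.9 and 63.9 CPM (1.45 ± 0.08, adjusted p = 5.23e-12). Cdkn1c (p57) rose by 2.33 and Cdkn1b (p27) by 0.82. Cdk6, which p15 inhibits, rose by 0.62 and the cyclin gene Ccnd1 by 0.3. In the opposite direction the S-phase cyclin Ccne2 fell by 1.45, Ccne1 by 0.52 (-1.19 against EV-deficient DMSO) and Ccnd3 by 0.87, and the E2F genes E2f1, E2f3, E2f7 and E2f8 fell by 0.4, 0.44, 1.38 and 0.37. Cdk1 (-0.13) and Ccnb1 (-0.14), the engine of mitosis, did not pass the test against EV-proficient DMSO but did against EV-deficient DMSO (-0.21 and -0.24), and Ccnb2 rose by 0.48. Over the list 11 of 27 genes rose and 10 fell (11 and 13 against EV-deficient DMSO). Of the usual senescence markers, Cdkn2a (p16 and p19Arf) was at 0.91, the lysosomal beta-galactosidase gene Glb1 at 0.67, the nuclear lamina gene Lmnb1 at -0.6 and the proliferation marker Mki67 at -0.43. The genes of homologous recombination and the Fanconi pathway fell in 15 of 30 cases and rose in 4 (median -0.33), and against EV-deficient DMSO 19 were lower and 2 higher; Brca1 and Fanca fell by 0.59 and 0.87. Messages of replication-dependent histones lack a poly(A) tail, and these libraries were made from polyadenylated RNA. The histone list also holds H1f0 and H2afz, whose messages are polyadenylated and made outside S phase too. Of its 21 tested members, Hist1h2bc (1.69), Hist1h2ac (1.28) and the linker histone gene H1f0 (1.11) rose, and the variant histone genes H2afz (-0.54) and H2afx (-0.45) fell.

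p53 targets rose in 16 of 32 cases and fell in 7 (median 0.2; 15 and 8 against EV-deficient DMSO, median 0.08). Trp53inp1, which links p53 to autophagy and cell death, measured 2.56, 1.48 and 1.58 CPM with DMSO and 36.7, 28.1 and 32.5 CPM with paclitaxel (4.1 ± 0.18, adjusted p = 1.89e-13). Ddit4, an inhibitor of mTORC1 also known as REDD1, rose from 7.41, 10.8 and 10.6 to 97.6, 104 and 96.4 CPM (3.37 ± 0.17, adjusted p = 7.95e-13; 2.13 with the other reference), and Gadd45a by 1.84. Several classical targets moved less or fell. Cdkn1a (p21) rose by 0.43, Mdm2 was at -0.14 and Ccng1 at -0.15 without passing the test (Mdm2 passed it at -0.24 with the other reference), and Bax, Aen and Trp53 itself fell by 0.58, 1.1 and 0.49.

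The BCL2 family and death effectors rose in 18 of 31 cases and fell in 7 (median 0.59; 19 and 8 against EV-deficient DMSO, median 0.33). Bmf, a BH3-only protein that promotes apoptosis, measured 0.95, 0.622 and 0.556 CPM with DMSO and 16.1, 15.9 and 14.8 CPM with paclitaxel (4.44 ± 0.21, adjusted p = 3.94e-13). Bcl2l11, which encodes BIM, another BH3-only protein, rose from 25.1, 23.2 and 25.6 to 80.3, 79.98 and 82.7 CPM (1.72 ± 0.1, adjusted p = 7.15e-12). The groups were far apart in both genes. The inflammatory caspases Casp1 and Casp4 rose by 4.18 and 3.01, and their substrate Gsdmd, which forms pores, by 1.54. The survival gene Bcl2 rose by 1.15. Mcl1 (-0.03) and Bcl2l1 (0.01, or 0.21 and past the threshold with the other reference) did not pass the test, and the pore-forming Bax and Bak1 fell by 0.58 and 0.74.

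The drug's own target family, the tubulins, fell in 9 of 16 cases and rose in 2 (8 lower and 4 higher against EV-deficient DMSO). Tubb5, a beta-tubulin of most cell types, measured 2306, 2445 and 2287 CPM with DMSO and 2235, 2446 and 2219 CPM with paclitaxel, which overlapped (-0.03 ± 0.06, adjusted p = 0.698). Its sign was not fixed: it was 0.03 under upper-quartile scaling and 0 without DMSO replicate 2. Tuba1b fell by 0.97, and Tubb3, a neuronal form studied in taxane resistance, fell from 44.1, 50.5 and 50.02 to 21, 25.2 and 26.3 CPM (-1.0 ± 0.09, adjusted p = 3.61e-09). Tuba1a fell by 1.29 and Tubb2b by 0.98, but against the EV-deficient DMSO libraries Tuba1a was at -0.12 and Tubb2b at 0.25. The minor forms Tubb4a and Tuba8 rose by 3.26 and 1.93, the latter 0.86 with that reference. Tubulin genes are similar in sequence, and how reads shared between them were counted is not given in the sources used here.

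Microtubule-associated proteins fell in 17 of 29 cases and rose in 6 (12 lower and 4 higher against EV-deficient DMSO). Map1b, a stabilising protein of growing axons, fell from 544, 449.6 and 482 to 139, 123 and 129 CPM (-1.92 ± 0.09, adjusted p = 3.94e-13; -0.96 against EV-deficient DMSO). Map6 fell by 1.51, Mapre2, a plus-end binding protein, by 0.83 and Camsap1, which caps minus ends, by 0.74. Stmn2, a destabiliser of tubulin, fell by 2.22 but was at 0.27 against EV-deficient DMSO (adjusted p = 0.22), and Map4, with a fall of 0.82, was at -0.1. Map1lc3a rose by 1.08 and Map7, which recruits kinesin-1, by 1.05. Among the ABC transporters, the drug efflux pump genes diverged: Abcb1a rose by 0.66, while Abcb1b, the second mouse gene for P-glycoprotein, fell from 175, 171 and 162 to 66.1, 61.8 and 65.5 CPM (-1.4 ± 0.06, adjusted p = 1.35e-13) and was at -0.37 against EV-deficient DMSO. The list as a whole split 10 higher to 11 lower of 26 (10 to 10 with that reference).

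Actin and the genes that serum response factor controls fell in 16 of 27 cases and rose in 3, with a median of -0.35 (16 and 2 against EV-deficient DMSO, median -0.32). Actb measured 5482, 6228 and 6156 CPM with DMSO and 2037, 2008 and 2299 CPM with paclitaxel (-1.49 ± 0.07, adjusted p = 1.21e-13). Actg1 fell from 2587, 2898 and 2892 to 968, 1028 and 1058 CPM (-1.46 ± 0.06, adjusted p = 1.19e-13). Both cytoplasmic actins were lower in every paclitaxel library than in any DMSO library. Flna, an actin crosslinker, fell by 1.03, non-muscle myosin Myh9 by 0.84, Tagln2 by 1.19, the matricellular gene Cyr61 by 1.07 and Srf itself by 0.69. Ctgf rose by 0.18, and Tpm1 was at 0.06 without passing the test, against -0.26 with the other reference, where it passed.

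Keratins and epidermal differentiation genes had no common direction, 10 of 27 higher and 12 lower, and depended on the reference, with 6 higher and 16 lower against EV-deficient DMSO. Krt8, a keratin of simple epithelia, fell from 2068, 2324 and 2199 to 889, 952 and 844 CPM (-1.29 ± 0.07, adjusted p = 1.11e-12), and its partner Krt18 by 0.3. Krt14, the basal keratin, measured 182, 206 and 186 CPM with DMSO and 192, 202 and 178 CPM with paclitaxel, with no difference that passed the test, but was -1.83 against EV-deficient DMSO. Ivl, which encodes involucrin of the cornified envelope, rose by 3.56. Plac8 rose most, from 3.44, 3.45 and 3.92 to 53.8, 51.3 and 47.8 CPM (3.83 ± 0.1, adjusted p = 7.13e-17), but its mean in EV-deficient DMSO was 62.1 CPM, and with that reference the change was -0.28. Its 4 group means thus followed the split of the second principal component.

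The junction and mesenchymal lists held several such genes. Cdh2, N-cadherin, fell from 218, 235 and 224 to 24.9, 22.6 and 25.7 CPM (-3.22 ± 0.11, adjusted p = 2.45e-15), but its EV-deficient DMSO mean was 39.9 CPM and the change with that reference -0.71. Nectin4, an adherens junction receptor, rose by 4.45 and was 1.12 with the other reference; Sparc was 2.78 and 0.54, and the mesenchymal factor Prrx1 3.6 and 0.3, the last no longer past the threshold (adjusted p = 0.0737). Other members held their values better. Vim, which encodes vimentin, fell from 1100.0, 1199 and 1204 to 374, 364 and 346 CPM (-1.69 ± 0.06, adjusted p = 3.15e-15; -1.07 with the other reference). Cdh1, E-cadherin, fell by 0.64 and Epcam rose by 1.0, against -0.51 and 0.9. Tjp3, a tight junction scaffold, rose by 2.06 and Twist1 by 1.36, against 2.16 and 0.96. Over the junction list 10 of 29 rose and 9 fell (10 and 10 with the other reference), close to the shares over all genes, and over the list of epithelial-mesenchymal regulators 13 of 24 rose and 7 fell (9 higher and 5 lower against EV-deficient DMSO).

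Of 37 collagens, integrins and laminins 14 rose and 11 fell, near the shares over all genes, and 12 were higher and 13 lower against EV-deficient DMSO. Col16a1 rose by 4.0 (2.46 with the other reference), the crosslinking enzyme Lox by 2.15 and Itgb5 by 1.93 (1.02), while the basement membrane collagens Col4a1 and Col4a2 fell by 1.02 and 0.86 and Thbs1 by 1.32 (at -0.66 with that reference). Of 27 proteases and inhibitors 12 rose and 9 fell (16 and 8 with the other reference). The matrix metalloproteinases that passed the test all rose: Mmp2 (1.18), Mmp9 (1.97), Mmp10 (0.75), Mmp11 (2.09), Mmp12 (2.75), Mmp13 (2.07) and Mmp15 (0.8). Mmp14, which acts at the cell surface, was at -0.13 and did not pass. The urokinase receptor Plaur fell from 184, 224 and 229 to 71.6, 80.3 and 81.2 CPM (-1.45 ± 0.12, adjusted p = 6.82e-10).

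Secreted growth factors diverged by gene, with 13 of 29 higher and 10 lower (14 and 11 against EV-deficient DMSO). Vegfa, the main angiogenic factor, measured 44.4, 48.6 and 50.7 CPM with DMSO and 269.9, 264 and 277 CPM with paclitaxel (2.5 ± 0.1, adjusted p = 6.15e-14; 1.56 against EV-deficient DMSO). Igfbp4 rose by 2.91 (0.93 with that reference) and Igfbp7 by 1.94 (1.72). The EGF receptor Egfr and its ligands Areg and Ereg fell by 0.79, 1.48 and 0.77, and Erbb3 rose by 1.6. In the TGF-beta and activin list 17 of 31 rose and 8 fell (16 and 10 with the other reference). Ltbp2, a latent TGF-beta binding protein, rose by 3.9 (1.67 with the other reference) and Bmp7 by 3.92 (0.65). Smad3 rose by 1.01 and Tgfb3 by 1.36. The activin subunit gene Inhba, its antagonist Fst and the BMP target Id1 fell by 0.53, 1.69 and 1.34. Immediate-early genes and feedback genes of the ERK pathway rose in 19 of 30 cases and fell in 4, with a median of 0.45; against EV-deficient DMSO 15 were higher and 7 lower (median 0.23), and under the EV-deficient label the median effect of paclitaxel was -0.19. Egr1 went from 40.2, 42.9 and 41.7 to 105, 109 and 122 CPM (1.43 ± 0.09, adjusted p = 2.27e-11), Fos rose by 1.6, Junb by 1.47, the phosphatase gene Dusp4 by 1.36 and Spry1 by 1.51 (0.64 with the other reference). Myc was at -0.08 and did not pass the test.

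Sterol and fatty acid synthesis fell in 26 of 35 cases and rose in 2, with a median of -0.53 (-0.4 against the EV-deficient DMSO libraries, with 24 lower and 3 higher). Fasn, fatty acid synthase, measured 1972, 1949 and 1888 CPM with DMSO and 625, 633 and 585 CPM with paclitaxel (-1.66 ± 0.1, adjusted p = 1.59e-11). Mvk, mevalonate kinase, fell from 42.3, 48.4 and 47.8 to 22.9, 21.4 and 19.8 CPM (-1.11 ± 0.1, adjusted p = 2.31e-09; -0.62 against EV-deficient DMSO). Lss, lanosterol synthase, fell from 158, 169 and 163 to 77.1, 77.3 and 72.9 CPM (-1.11 ± 0.07, adjusted p = 7.34e-12). For each of the 3 genes the paclitaxel libraries lay close together and well below the DMSO libraries. The 2 that rose were Insig1 (0.54), which holds the pathway's regulator back, and Scd1 (0.51), which was at -0.03 against EV-deficient DMSO (adjusted p = 0.725).

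The list of glycolysis and the hypoxia response was mixed, with 11 of 33 higher and 15 lower (median -0.14; 14 and 13 against EV-deficient DMSO). Of its members, the glycolytic enzyme gene Eno1 went from 2569, 2821 and 2537 to 1151, 1209 and 1160.0 CPM (-1.17 ± 0.07, adjusted p = 8.49e-12), and Pgam1, Ldha, Pkm and Gapdh fell by 1.15, 1.1, 0.98 and 0.8. Bnip3 and Pdk1 rose by 1.67 and 1.01, the glucose transporter gene Slc2a1 fell by 0.54, and Hif1a was at 0.08 without passing the test. Aldoc, a minor aldolase, rose by 2.85. NRF2 targets fell in 20 of 32 cases and rose in 8 (median -0.34; 20 and 5 against EV-deficient DMSO), among them Pgd (-1.38) of the pentose phosphate pathway, Hmox1 (-1.0), Gclm (-0.89) and Txn1 (-0.84), while Gstm1 (1.55) rose. Nuclear-encoded respiratory chain genes fell in 12 of 35 cases and rose in 4 (19 lower and 1 higher against EV-deficient DMSO). Cycs, cytochrome c, fell by 0.96 and the coactivator Ppargc1a rose by 2.61. Of 11 mitochondrially encoded genes, 4 rose and mt-Nd1 fell by 0.44; mt-Co1 rose from 3813, 3015 and 3854 to 5252, 5233 and 4820.0 CPM (0.52 ± 0.12, adjusted p = 0.000604). mt-Co2, mt-Co3 and mt-Atp6 were counted at 7.22, 4.28 and 2.55 CPM with DMSO, and their values are uncertain because nuclear copies of these genes exist.

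Lysosomal genes rose in 20 of 36 cases and fell in 7 (26 and 4 against EV-deficient DMSO), and autophagy genes rose in 19 of 30 and fell in 6, the same counts as with that reference. Hexa, a subunit of the lysosomal hexosaminidase, measured 8.87, 9.19 and 8.37 CPM with DMSO and 53.2, 58.6 and 46.9 CPM with paclitaxel (2.59 ± 0.1, adjusted p = 1.21e-14). The autophagy receptor gene Calcoco1 rose from 13.1, 14.9 and 13.3 to 77.8, 91.4 and 84.8 CPM (2.62 ± 0.11, adjusted p = 3.48e-14), and Nbr1, another receptor, from 141, 128 and 128 to 329, 317 and 299 CPM (1.25 ± 0.07, adjusted p = 1.84e-12). All 3 were separated between the groups, with 1.6, 2.32 and 0.8 against EV-deficient DMSO. The initiating kinase gene Ulk1 rose by 0.77, Gabarapl1 by 1.06, Naglu by 1.2 and Gaa by 0.88, while the proton pump subunit Atp6v1a fell by 0.33 and Atg16l1 by 0.5. Tfeb (0.01) and Tfe3 (0.12), factors that drive lysosomal genes, did not pass the test; Tfeb did with the other reference, at 0.44.

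Genes of vesicle formation and release, the process that the EV labels name, had no common direction: 10 of 36 rose and 10 fell, with a median of -0.04, while against EV-deficient DMSO 14 were higher and 8 lower, with a median of 0.11. The tetraspanin genes Cd81, Cd82 and Cd9 rose by 1.13, 0.84 and 0.4, and Cd63 and Cd151 fell by 0.24 and 0.49. Flot1 rose by 1.23, whereas its partner Flot2 fell by 1.03 and was at -0.02 with the other reference. Smpd3, a sphingomyelinase that acts in exosome release, rose by 0.98 (1.72 with that reference), and the ESCRT-linked Hgs and Pdcd6ip fell by 0.37 and 0.33. The list of the unfolded protein and integrated stress responses was mixed, with 11 of 32 higher and 14 lower (median -0.08; 9 and 16 against EV-deficient DMSO). Of its members, Hspa5, a chaperone of the endoplasmic reticulum, went from 1303, 1305 and 1192 to 809.5, 790.0 and 789 CPM (-0.67 ± 0.06, adjusted p = 1.52e-09), and Creld2 and Manf fell by 0.93 and 0.76. The stress-induced cofactor Nupr1 rose from 9.48, 9.55 and 8.52 to 68.5, 79.9 and 64.2 CPM (2.95 ± 0.12, adjusted p = 5.73e-14; 1.87 with the other reference), with Trib3 (1.19), Chac1 (1.02) and Ddit3 (0.47) also higher; Atf4 was at -0.11 without passing the test (-0.22 and past it with that reference), and Slc7a5, an amino acid transporter, fell by 1.32.

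**Figure D4:**
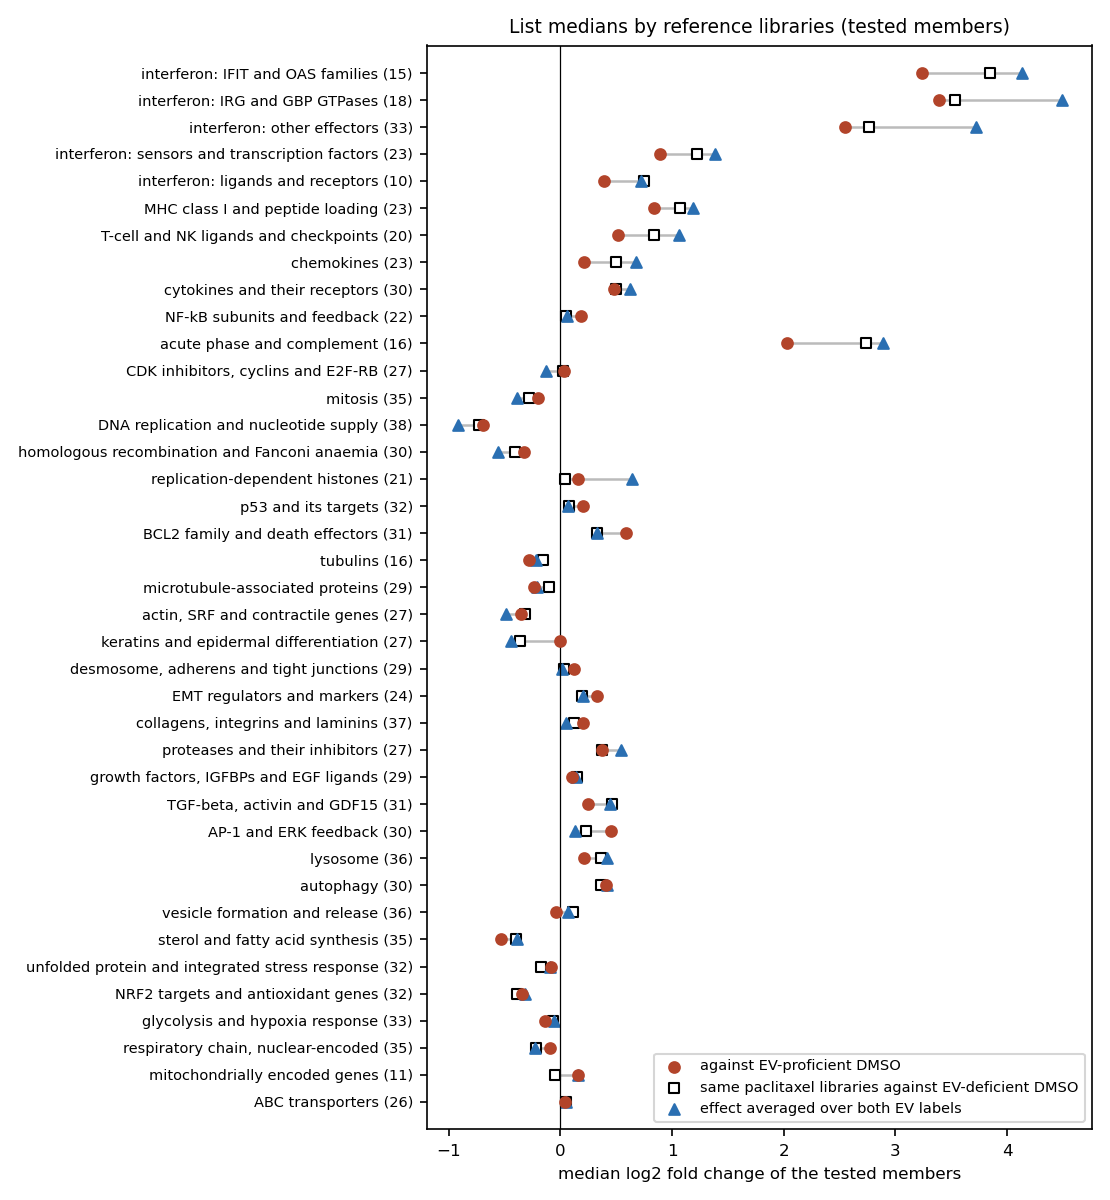
Median log2 fold change of the tested members of each list (number in brackets) for the EV-proficient paclitaxel libraries against EV-proficient DMSO (circles), the same libraries against EV-deficient DMSO (squares), and the paclitaxel effect averaged over both EV labels (triangles). For the IFIT and OAS list the 3 values are 3.24, 3.85 and 4.13, and for DNA replication they are -0.69, -0.73 and -0.92; the keratin list moves from 0 to -0.36 with the second reference.

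Among genes with a mean of at least 5 CPM the largest rises included the list members Lcn2, Rsad2, Oasl2, Ifit3 and Ifit1. Highest was Pgm5, a phosphoglucomutase relative found at muscle adhesion sites, with 0.171, 0.0239 and 0 CPM under DMSO and 14.2, 14.8 and 14.2 CPM under paclitaxel (adjusted p = 2.17e-13). With at most 7 counts in a DMSO library, the fitted log2 fold change of 7.67 is imprecise; its EV-deficient DMSO mean was 0.476 CPM, and with that reference the change was 4.91. Without DMSO replicate 1 the change of Pgm5 was 9.83, since the other DMSO libraries were at or near 0. Tmem252, an uncharacterised membrane protein, went from 0.633, 0.144 and 0.117 to 14.8, 16.9 and 17.2 CPM (5.72 ± 0.33, adjusted p = 5.95e-12), and the change was 6.92 without DMSO replicate 1. Among the lowest, Angptl4, a secreted inhibitor of lipoprotein lipase, fell from 26.8, 29.1 and 26.8 to 1.54, 1.3 and 1.33 CPM (-4.3 ± 0.2, adjusted p = 3.94e-13; -2.35 with the other reference). Nat8l, which makes N-acetylaspartate, fell by 3.35 and Xirp2, an actin-binding muscle protein, by 3.34, and both held at -3.44 and -2.91. Il5ra, the interleukin-5 receptor chain, fell from 1516, 1440.0 and 1332 to 157, 141 and 166 CPM (-3.21 ± 0.09, adjusted p = 8.62e-17; -1.85). Rftn1, Hoxb9 and Lmo1 fell by 4.07, 3.25 and 3.48 but were at -1.46, -0.64 and -0.01 with the other reference, where Lmo1 did not pass the test (adjusted p = 0.951). Prl2c3, of a cluster of near-identical prolactin-like genes, fell by 2.88 and was at -1.39. Among abundant genes that rose, the adhesion protein osteopontin (Spp1) was 2.25 higher (1.96), the receptor phosphatase Ptprf 2.2 (0.94) and Fgfr1 2.35 (0.3).

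**Figure D5:**
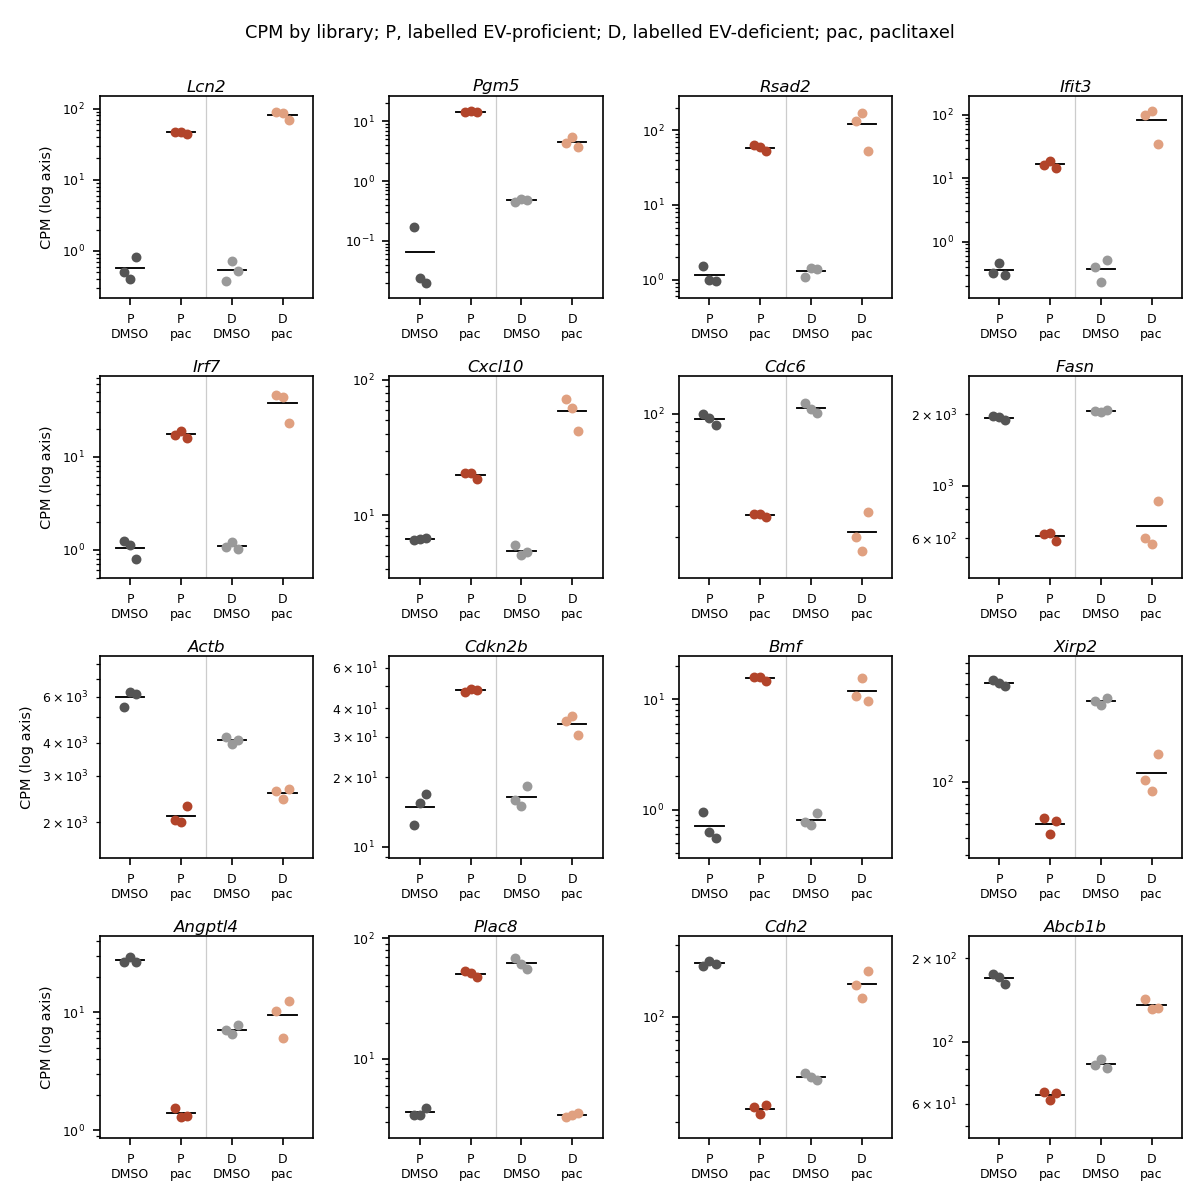
CPM (log axis, scale differs by panel) of 16 genes in each of the 12 libraries; points are libraries, lines are group means, P and D mark the EV-proficient and EV-deficient labels, and a value of 0 is drawn at 0.02 CPM. Lcn2, the interferon genes, Cdc6, Fasn and Bmf separate paclitaxel from DMSO under both labels, whereas Plac8, Cdh2 and Abcb1b follow the split of the second principal component.

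Markers of other cell types were mostly at or near the floor, but several lists moved with treatment, and their part in these results was not tested. The summed level of 12 leukocyte markers was 1.63 to 2.34 CPM with DMSO and 13.3 to 15.4 CPM with paclitaxel. Of these, Csf1r was at 0.944 CPM with DMSO and 11.6 CPM with paclitaxel on average and at 12.4 CPM in EV-deficient DMSO, whereas Cd3g and Tyrobp were at 0 in all 6 libraries. Muscle markers summed to 0.852 to 1.23 CPM with DMSO and 4.53 to 6.27 CPM with paclitaxel, with Myod1 at 0.0845 and 2.91 CPM on average. Fibroblast markers summed to 1.70 to 2.63 and 5.86 to 6.95 CPM, mainly Pdgfra (1.22 and 4.25 CPM). Neural markers summed to 1.58 to 1.84 and 3.48 to 4.41 CPM, and endothelial markers to 2.80 to 2.96 and 2.95 to 3.62 CPM. The squamous epithelial markers moved the other way, from 7445 to 7932 CPM with DMSO to 5509 to 5782 CPM with paclitaxel in sum. Of 8 tested, 5 fell and 2 rose (median -0.38).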

How the data were processed

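Polyadenylated RNA was sequenced from 12 MOC2 libraries made with a stranded kit, according to the protocols in the labels. Raw counts per gene were deposited by the authors, made from reads aligned to GRCm38 with STAR 2.5.0a, per the submitters' processing notes; the counting program, annotation and use of strand are not given in the sources used here. The deposited table holds 55421 genes, of which 3995 have no symbol, and rows for gfp (0 in every library) and dngfr that stayed out of library sizes and tests.

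Genes passing edgeR's filterByExpr (minimum count 10; 18108 genes) were scaled by TMM and tested with edgeR 4.0.16 (R 4.3.3, quasi-likelihood) in 1 fit over all 12 libraries, with Benjamini-Hochberg adjustment over all tested genes and a threshold of 0.05. The fit was also run on simulated counts, with the same spread for every gene and few changed genes. These data differ from that setting, so the run does not measure the error rate here. SE is the log2 fold change divided by the root of F. A fold against a group at or under 3 counts per library is a lower bound against that floor, which covers counting error only. CPM compares a gene between libraries, not genes with each other.

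The comparison, the 39 gene lists and the naming rule were chosen with earlier results of these data known. The rule took the 8 highest and 8 lowest called genes with a mean of at least 5 CPM and the 4 and 4 with at least 100 CPM. From each list it took the 3 largest called changes with at least 1 CPM. All of these had to have groups that do not overlap. It also took 15 fixed genes, and clone names were left out. Other list members were named after their values were seen, and some genes are not reported here. Alternatives were other scalings and filters, DESeq2 1.42.0, limma-voom (limma 3.58.1), a replicate block, the 6 libraries alone, leaving out each library and, added after seeing the data, EV-deficient DMSO as the reference. Promoters are RefSeq windows (GRCm38.p6), matched by symbol for 806 of 1106 list entries. Figures used matplotlib 3.10.9.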

Additional observations from a re-analysis of the deposited data

Results flagged for a closer look

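The paclitaxel effect differed between the EV labels in 7370 of 18108 tested genes by edgeR's interaction test. Among the 16 genes with the largest changes at 5 CPM or more, 12 had such an interaction. These 16 were picked by their change under the EV-proficient label, which is a term of the interaction, so the pick itself favours one. The interaction is given as the effect under the EV-deficient label minus that under the EV-proficient label on the log2 scale. It was -4.44 for Pgm5 and -2.65 for Tmem252, which rose less under the EV-deficient label. It was 0.88 for Lcn2 and 2.24 for Ifit3, which rose more there. Among genes that fell under the EV-proficient label it was 0.97 for Nat8l, 1.65 for Xirp2, 2.56 for Il5ra, 4.73 for Angptl4, 5.27 for Cdh2, 5.28 for Rftn1, 5.45 for Hoxb9 and 6.48 for Lmo1. Angptl4, Cdh2, Rftn1, Hoxb9 and Lmo1 were higher with paclitaxel under the EV-deficient label, by 0.43, 2.06, 1.21, 2.19 and 3.0. Several of these genes also differed between the DMSO libraries of the labels, with 27.5 CPM under the EV-proficient and 7.12 CPM under the EV-deficient label for Angptl4, 1429 and 557.5 CPM for Il5ra, and 0.0648 and 0.476 CPM for Pgm5. For these interactions a difference between derivatives, an exchange of libraries between the derivatives and a difference in drug effect cannot be told apart.

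The dngfr row, which the tests did not use, averaged 10.9 CPM in the EV-deficient paclitaxel libraries against 2.14 ± 0.348 CPM (SD, n = 3) in the EV-deficient DMSO libraries, and 9 ± 3.24 CPM with DMSO against 3.24 ± 0.682 CPM with paclitaxel under the EV-proficient label. No library was moved to another group because of it.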

How the results depend on the processing

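The number of called genes lay between 9577 and 10675 over the alternative scalings, filters, tools and fits with all libraries, and between 9637 and 10317 when 1 library was left out. Of the called genes 53.5% were higher, against 58.3% with upper-quartile scaling and 49.4% and 49% without paclitaxel replicates 1 and 2, where more genes fell than rose. A replicate block called 10520 genes, 10396 of them shared with the fit without it. Same-numbered libraries deviated together by r of 0.097, -0.0277 and 0.041, against -0.111 to 0.0736 for the other pairs. These few values, over genes of which many have few counts, neither show nor exclude a pairing by number. Averaged over both EV labels, the genes at least 2-fold higher numbered 3244, against 1941 with a filter of 1 CPM in 3 libraries, and those at least 2-fold lower 910, against 555 with that filter and 603 with upper-quartile scaling; the filter tests fewer genes. Tubb5 turned to 0.03 with upper-quartile scaling and ran from -0.13 to 0 when 1 library was left out. The median of the IFIT and OAS families ran from 3 to 4.11, Pgm5 from 7.18 to 9.83 and Tmem252 from 5.36 to 6.92. Without paclitaxel replicate 1, mt-Atp6 was at 0.47 (adjusted p = 0.07). Against EV-deficient DMSO, Stmn2 turned to 0.27 and Plac8 to -0.28, and Lmo1, Ccl2, Tuba1a, Prrx1, Itgb3 and Gsta4 no longer passed the test; of 137 named genes that were called, 129 kept direction and call, but only 90 of these changes were larger or within 1.5-fold of the first value. Of 312 list medians under the settings with all libraries, 274 moved by less than the spread and 7, in 4 lists, changed sign. With 1 library left out the numbers were 175 of 234 and 11, in 5 lists, and against EV-deficient DMSO 9 of 39 and 2; the cause was not tested. Genes with few counts, among them Ifnb1 and Il6, are limited by depth.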
